A study of Homo sapiens with 8 samples.

Results

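The 10 genes described here encode the proteins by which a human cell takes up, stores, releases and senses iron. They are TFRC, SLC11A2, SLC40A1, FTH1, FTL, ACO1, IREB2, NCOA4, STEAP3 and FBXL5, read by symbol from a table of gene counts that lists 61517 genes. The counts come from poly(A)-selected RNA of KYSE150, an established human esophageal squamous cell carcinoma line, sequenced in 8 libraries, 2 for each of 4 groups. Cells of the first group were in hypoxia and received both oxamate, a lactate dehydrogenase inhibitor given as its sodium salt, and an agent labelled NALA, read from the treatment protocol as sodium lactate. Those of the second group were in hypoxia with oxamate, those of another in hypoxia without drug, and the rest in normoxia without drug. All groups were grown in RPMI-1640 with fetal bovine serum, so transferrin from serum was part of every culture. The sources used here state no oxygen level, dose or duration. One cell line stands behind every value, and no label tells whether a group's 2 libraries were grown apart. The p-values therefore reflect library-to-library spread alone, which may be technical.

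Iron bound to transferrin enters cells through the transferrin receptor, is reduced in the endosome by STEAP3 and crosses into the cytosol through the metal transporter encoded by SLC11A2. Iron that is not used is stored in ferritin, a shell of heavy and light chains from FTH1 and FTL, is recovered from it by NCOA4-directed autophagy, and leaves the cell through ferroportin, encoded by SLC40A1. The iron regulatory proteins IRP1 (from ACO1) and IRP2 (from IREB2) bind hairpins called iron-responsive elements when iron is scarce. Bound at the start of the ferritin mRNAs they block translation, and bound in the 3′ untranslated region (UTR) of the TFRC mRNA they protect it from decay. FBXL5 is the iron- and oxygen-dependent subunit of the ubiquitin ligase that removes IRP2. Ferritin is thus set largely at translation, which RNA counts do not measure.

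The hairpins of the expressed members are shown because they are where the iron regulatory proteins are known to meet the TFRC and ferritin mRNAs. The search used transcripts of GENCODE release 29 on GRCh38, in the sense strand only, for CNNNNNCAGTGN (a bulged C and the loop) with 5 base pairs, G-U allowed, closing the loop. No overlap with another motif was scored. Each line gives 29 bases 5′ to 3′, with the bulged C and the 6 loop bases in capitals. The FTH1 site lies at chr11:61967574-61967602 (minus strand, 5′ UTR, in 7 of 8 protein-coding transcripts) and the FTL site at chr19:48965335-48965363 (plus strand, 5′ UTR). The 4 TFRC sites lie in the 3′ UTR on the minus strand, at chr3:196050979-196051007, chr3:196050575-196050603, chr3:196050510-196050538 and chr3:196050463-196050491.
FTH1 5′ UTR: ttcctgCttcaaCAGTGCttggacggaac
FTL 5′ UTR: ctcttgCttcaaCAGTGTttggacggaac
TFRC 3′ UTR, site 1: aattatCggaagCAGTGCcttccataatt
TFRC 3′ UTR, site 2: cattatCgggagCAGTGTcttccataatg
TFRC 3′ UTR, site 3: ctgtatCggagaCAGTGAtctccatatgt
TFRC 3′ UTR, site 4: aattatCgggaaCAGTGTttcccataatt

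With 1 transcript per gene, 22 of 18449 5′ UTRs (0.119%) and 95 of 19497 3′ UTRs (0.487%) held a match. TFRC held 4, more than any other 3′ UTR searched. Among UTRs within 20% of the length, a match was held by 5 of 3202 for FTH1 (0.156%), 3 of 3068 for FTL (0.0978%) and 15 of 1868 for TFRC (0.803%). SLC40A1, which had no counts here, also held 1 match in its 5′ UTR. In the other members, SLC11A2 included, the letters with this paired stem were not found, from which nothing follows about IRP binding.

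Total counts per library lay between 21845676 and 29406061, and levels below are CPM, counts scaled to a common library size with edgeR's TMM factors, given per library or as mean ± SD of 2 libraries. Of the listed genes, 15554 passed the expression filter, 9 of the 10 members among them. Fold changes are log2 ± standard error from a quasi-likelihood fit of all 8 libraries in edgeR. To pass, a gene needed an adjusted p below 0.05. All 10 squamous epithelial markers were present, with summed levels between 3039 and 4428 CPM of the library totals. Erythroid markers reached at most 1 count in any library, and COL3A1 was at 0 in every library. Leukocyte markers, of which CD68 gave nearly all counts, summed to between 75.6 and 91.3 CPM with oxamate, with or without NALA, to 127 and 121 CPM in hypoxia and to 39.8 and 43.7 CPM in normoxia. Fibroblast and endothelial markers summed to between 1.29 and 2.24 CPM with oxamate, with or without NALA, to 11.0 and 10.4 CPM in hypoxia and to 4.19 and 4.29 CPM in normoxia. Replicate 1 with oxamate and NALA stood apart: it held 204 counts of ALB, the liver gene for albumin, against 0 in each of the other 7 libraries. The part of these markers in the results was not tested, and values without that library are given where they change the call of a member.

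Hypoxia set against normoxia asked how iron genes respond to low oxygen. Both ferritin genes rose more than 2-fold, TFRC rose by less, and NCOA4, FBXL5 and STEAP3 fell. All 9 tested members passed, 6 higher and 3 lower, where 73.5% of all tested genes passed, 36.7% higher and 36.8% lower, so that the count itself does not set the members apart. At least 2-fold changes were found in 2 of 9 members and in 28.7% of all tested genes. The median log2 fold change was 0.19 over the members and 0.02 over all tested genes.

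Oxamate set against hypoxia without drug gave the largest member changes between groups that differ by 1 agent. TFRC, SLC11A2 and IREB2 each fell more than 5-fold, FBXL5 fell by less, NCOA4 rose more than 2-fold, and ACO1 and STEAP3 rose modestly. FTH1 and FTL did not pass, at -0.03 and -0.04 on the log2 scale. Of 9 members, 3 rose and 4 fell, beside 80.5% of all tested genes that passed, 35.7% higher and 44.8% lower. At least 2-fold changes were found in 4 of 9 members and in 41.8% of all tested genes. The median was -0.04 over the members and -0.20 over all tested genes.

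Oxamate with NALA set against oxamate alone asked which changes follow the added agent while oxamate is present. TFRC, SLC11A2 and IREB2 each rose more than 2-fold, FBXL5 rose nearly as much, and the ferritin genes rose too, while ACO1 and STEAP3 fell. Of 9 members, 6 rose and 2 fell, beside 64.9% of all tested genes that passed, 33.2% higher and 31.7% lower. At least 2-fold changes were found in 3 of 9 members and in 19.2% of all tested genes. The median was 0.68 over the members and -0.02 over all tested genes. Set against hypoxia without drug, oxamate with NALA left 4 members higher and 4 lower (78.6% of all tested genes passed, 38.5% higher and 40.2% lower), with TFRC, SLC11A2 and IREB2 still more than 2-fold lower. With NCOA4, these made 4 of 9 members past 2-fold, beside 37.5% of all tested genes. Comparisons that share a group share its libraries, so their values are given side by side and are not independent.

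**Figure D1:**
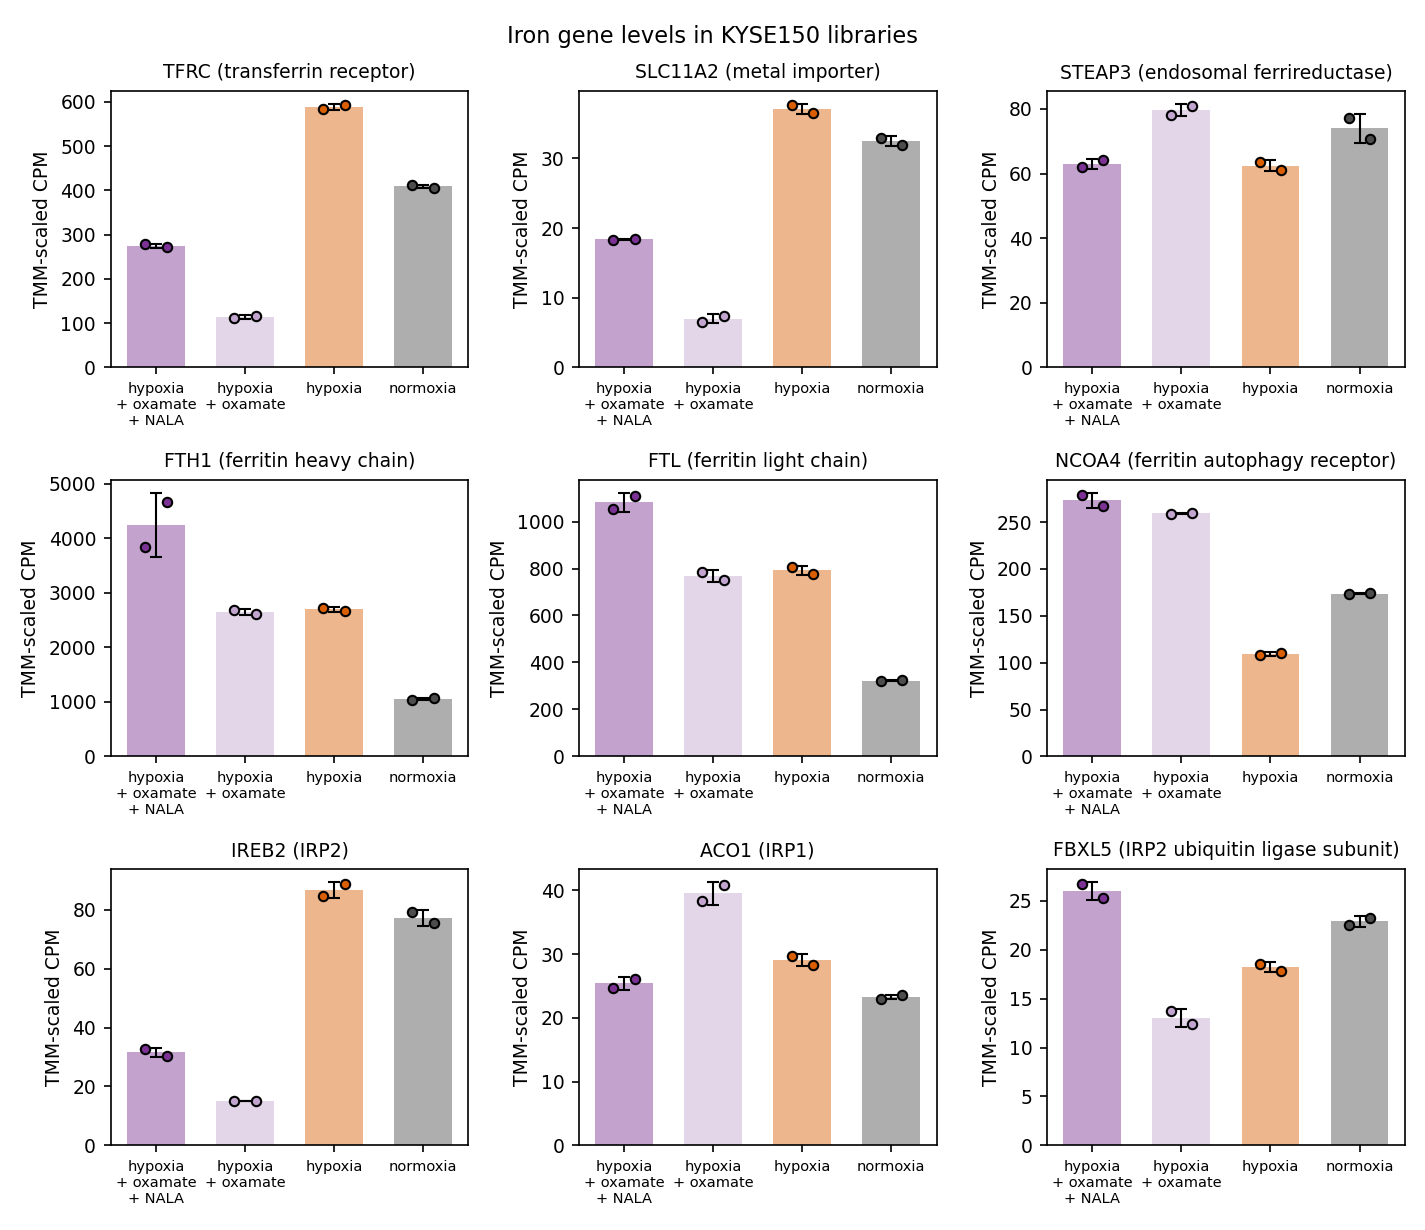
Each panel plots one gene, with TMM-scaled CPM on a linear axis from 0 against the 4 groups. Points are libraries, bars are means and error bars are SD (n = 2). TFRC, SLC11A2 and IREB2 share one order of groups, with hypoxia highest and oxamate lowest, and FTH1 and FTL are lowest in normoxia.

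Among the uptake genes, TFRC (ENSG00000072274), the transferrin receptor, spans chromosome 3 from 196027183 to 196082189, in GRCh38 as annotated by GENCODE release 29, like all gene positions below. It stood at 278 and 272 CPM with oxamate and NALA, 111 and 117 CPM with oxamate, 583 and 594 CPM in hypoxia and 412 and 406 CPM in normoxia. No group overlapped with another. TFRC rose in hypoxia against normoxia (0.52 ± 0.031, adjusted p = 6.70e-13). It fell 5.15-fold with oxamate against hypoxia (-2.36 ± 0.034, adjusted p = 1.28e-23) and rose 2.40-fold when NALA was added (1.27 ± 0.035, adjusted p = 1.83e-18). With NALA it remained below hypoxia (-1.10 ± 0.032) and below normoxia (-0.57 ± 0.032). Every neighbour in the order of groups differed at an adjusted p of 2.59e-13 or smaller except hypoxia and normoxia, given above.

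The promoter window of TFRC is shown because the gene rose in hypoxia. The letters ACGTG, the core of the element bound by hypoxia-inducible factors, were searched on both strands of RefSeq windows from 250 bases before to 50 bases after each gene start (GRCh38.p14). Of 35116 windows, 21.4% held them. The 9 members with an entry have 14 windows, of which 3 held them (21.4%, as in the background), in TFRC, FTL and FBXL5. FTH1 has no entry, so its promoter was not searched. The TFRC window lies at chr3:196082041-196082340 on the minus strand. Its match, in capitals, begins 88 bases before the RefSeq start. By the GENCODE span of TFRC given above, which begins further upstream, the match lies inside the gene. A match is no evidence of binding.
TFRC promoter: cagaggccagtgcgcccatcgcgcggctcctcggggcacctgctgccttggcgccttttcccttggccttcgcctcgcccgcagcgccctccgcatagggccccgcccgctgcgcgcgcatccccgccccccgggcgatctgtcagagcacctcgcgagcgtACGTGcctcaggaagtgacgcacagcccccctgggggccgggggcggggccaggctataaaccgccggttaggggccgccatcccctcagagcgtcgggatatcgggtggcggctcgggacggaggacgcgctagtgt

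SLC11A2 (ENSG00000110911), the transporter that moves ferrous iron out of the endosome (also called DMT1), lies on chromosome 12 from 50979401 to 51028566. It stood at 18.4 and 18.5 CPM with oxamate and NALA, 6.50 and 7.44 CPM with oxamate, 37.6 and 36.5 CPM in hypoxia and 33.0 and 32.0 CPM in normoxia. The groups did not overlap, and the order was that of TFRC. Oxamate lowered it 5.32-fold against hypoxia (-2.41 ± 0.082, adjusted p = 2.25e-17), and adding NALA raised it 2.64-fold (1.40 ± 0.092, adjusted p = 7.93e-12). With NALA it was still lower than in hypoxia (-1.01 ± 0.071) and in normoxia (-0.82 ± 0.072). The small rise in hypoxia over normoxia (0.19 ± 0.063, adjusted p = 0.00967) did not pass in DESeq2 (0.19), without hypoxia replicate 1 (0.17) or without normoxia replicate 2 (0.17).

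STEAP3 (ENSG00000115107), the endosomal reductase that prepares iron for SLC11A2, lies on chromosome 2 from 119223831 to 119265652. It stood at 61.9 and 64.1 CPM with oxamate and NALA, 78.2 and 81.0 CPM with oxamate, 63.7 and 61.2 CPM in hypoxia and 77.2 and 70.8 CPM in normoxia. Oxamate with NALA overlapped with hypoxia. STEAP3 fell in hypoxia against normoxia (-0.24 ± 0.049), rose with oxamate against hypoxia (0.35 ± 0.049) and fell when NALA was added (-0.34 ± 0.050). Oxamate with NALA against hypoxia gave 0.01 ± 0.051 (adjusted p = 0.801), but -0.24 with a pass under upper quartile normalization. Oxamate against normoxia gave 0.11 ± 0.048 (adjusted p = 0.0511), and passed as higher in 8 of the 11 alternatives run, RLE size factors (0.19), upper quartile normalization (0.15) and DESeq2 (0.19) among them. STEAP3 gave 0.04 there without normoxia replicate 2. An antisense gene, STEAP3-AS1, shares 11.0% of the exon bases and had at most 17 counts in a library.

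SLC40A1 (ENSG00000138449), encoding ferroportin, the only known iron exporter of human cells, is on chromosome 2 from 189560579 to 189583758. It had 0 counts in each of the 8 libraries. A floor of 3 counts per library corresponds to between 0.0948 and 0.152 CPM, so a level under this floor cannot be told from absence, and no fold change is given. Intervals and floors of this kind cover counting error only.

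The ferritin genes had the highest levels of the members per kilobase. FTH1 (ENSG00000167996), the ferroxidase-active heavy chain, lies on chromosome 11 from 61959718 to 61967660. It stood at 3837 and 4666 CPM with oxamate and NALA, 2681 and 2610 CPM with oxamate, 2728 and 2662 CPM in hypoxia and 1035 and 1062 CPM in normoxia. Every hypoxic library lay above both normoxic ones, and the hypoxia and oxamate groups overlapped. FTH1 rose 2.57-fold in hypoxia against normoxia (1.36 ± 0.102, adjusted p = 2.25e-04). Oxamate against hypoxia gave -0.03 ± 0.099 (adjusted p = 0.818). Adding NALA to oxamate raised it (0.68 ± 0.100, adjusted p = 0.00342), by 0.82 without NALA replicate 1 and by 0.55 without NALA replicate 2, which held 0.420% of all its counts in this gene. Its standard error was about 3 times that of FTL.

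FTL (ENSG00000087086), the light chain that supports the mineral core, lies on chromosome 19 from 48965301 to 48966878 and followed FTH1. It stood at 1052 and 1111 CPM with oxamate and NALA, 786 and 750 CPM with oxamate, 805 and 778 CPM in hypoxia and 321 and 325 CPM in normoxia. The order of groups was the same, and again hypoxia and oxamate overlapped. FTL rose 2.45-fold in hypoxia against normoxia (1.29 ± 0.033, adjusted p = 2.56e-19) and rose again when NALA was added to oxamate (0.49 ± 0.032, adjusted p = 5.16e-12). Oxamate against hypoxia gave -0.04 ± 0.032 (adjusted p = 0.202). For this comparison the sign of both ferritin genes turned with the scaling, and when only those 2 groups were fitted both passed as higher, FTH1 by 0.08 and FTL by 0.06. FTL also passed as higher without oxamate replicate 2 (0.09) and as lower under upper quartile normalization (-0.11). Processed pseudogenes can share reads with these genes. The 25 FTH1 pseudogene rows held at most 0.291% of the FTH1 count of a library and the 16 FTL rows at most 0.396%. BEST1, on the opposite strand, shares 62.4% of the FTH1 exon bases and reached 4.26 CPM at most, and strand was not stated.

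NCOA4 (ENSG00000266412), the receptor that carries ferritin to autophagosomes, lies on chromosome 10 from 46005088 to 46030714. It stood at 279 and 267 CPM with oxamate and NALA, 259 and 260 CPM with oxamate, 108 and 111 CPM in hypoxia and 173 and 174 CPM in normoxia. Hypoxia was the lowest group, and both oxamate groups lay above normoxia. NCOA4 fell in hypoxia against normoxia (-0.67 ± 0.035, adjusted p = 1.16e-13) and rose 2.37-fold with oxamate against hypoxia (1.25 ± 0.035, adjusted p = 7.91e-19). Adding NALA gave 0.07 ± 0.033 (adjusted p = 0.056), which passed as higher without NALA replicate 2 (0.12) and as lower under upper quartile normalization (-0.12).

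The 2 iron regulatory proteins parted. IREB2 (ENSG00000136381), encoding IRP2, lies on chromosome 15 from 78437431 to 78501456. It stood at 32.7 and 30.4 CPM with oxamate and NALA, 15.0 and 14.9 CPM with oxamate, 84.7 and 88.7 CPM in hypoxia and 79.3 and 75.4 CPM in normoxia. The groups did not overlap. IREB2 fell 5.79-fold with oxamate against hypoxia (-2.53 ± 0.060, adjusted p = 4.24e-20), the largest member change in that comparison, and rose 2.10-fold when NALA was added (1.07 ± 0.070, adjusted p = 6.93e-12). With NALA it stayed below hypoxia (-1.46 ± 0.054) and normoxia (-1.30 ± 0.054). Its rise in hypoxia over normoxia (0.17 ± 0.046, adjusted p = 0.00293) did not pass without hypoxia replicate 2 (0.13) or normoxia replicate 2 (0.13).

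ACO1 (ENSG00000122729) encodes IRP1, which is a cytosolic aconitase while it holds an iron-sulfur cluster, and lies on chromosome 9 from 32384603 to 32454769. It stood at 24.7 and 26.2 CPM with oxamate and NALA, 38.3 and 40.8 CPM with oxamate, 29.7 and 28.3 CPM in hypoxia and 23.0 and 23.5 CPM in normoxia. Oxamate was the highest group, the reverse of IREB2. ACO1 rose in hypoxia against normoxia (0.32 ± 0.066, adjusted p = 1.73e-04), rose with oxamate against hypoxia (0.45 ± 0.063, adjusted p = 1.02e-06) and fell when NALA was added (-0.64 ± 0.066, adjusted p = 1.74e-08). Oxamate with NALA against normoxia gave 0.13 ± 0.069 (adjusted p = 0.0979), and passed as higher with RLE size factors (0.16). Against hypoxia it was lower (-0.19 ± 0.068, adjusted p = 0.0153), a call that ended in DESeq2 (-0.16), without NALA replicate 1 (-0.14) and without hypoxia replicate 1 (-0.15).

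FBXL5 (ENSG00000118564), which targets IRP2 for destruction, lies on chromosome 4 from 15604539 to 15681679. It stood at 26.7 and 25.3 CPM with oxamate and NALA, 13.7 and 12.4 CPM with oxamate, 18.6 and 17.8 CPM in hypoxia and 22.5 and 23.3 CPM in normoxia. The groups did not overlap. FBXL5 fell in hypoxia against normoxia (-0.33 ± 0.075, adjusted p = 4.18e-04), fell with oxamate against hypoxia (-0.48 ± 0.082, adjusted p = 1.69e-05) and rose when NALA was added (0.99 ± 0.081, adjusted p = 3.37e-10). With NALA it lay above hypoxia (0.51 ± 0.076). Its rise over normoxia (0.18 ± 0.074, adjusted p = 0.0329) did not pass without NALA replicate 1 (0.15), without normoxia replicate 1 (0.15) or 2 (0.21), in DESeq2 (0.21), with the stricter filter (0.14), with no filter (0.15) or under upper quartile normalization (0.03). FAM200B on the opposite strand shares 18 exon bases with it.

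**Figure D2:**
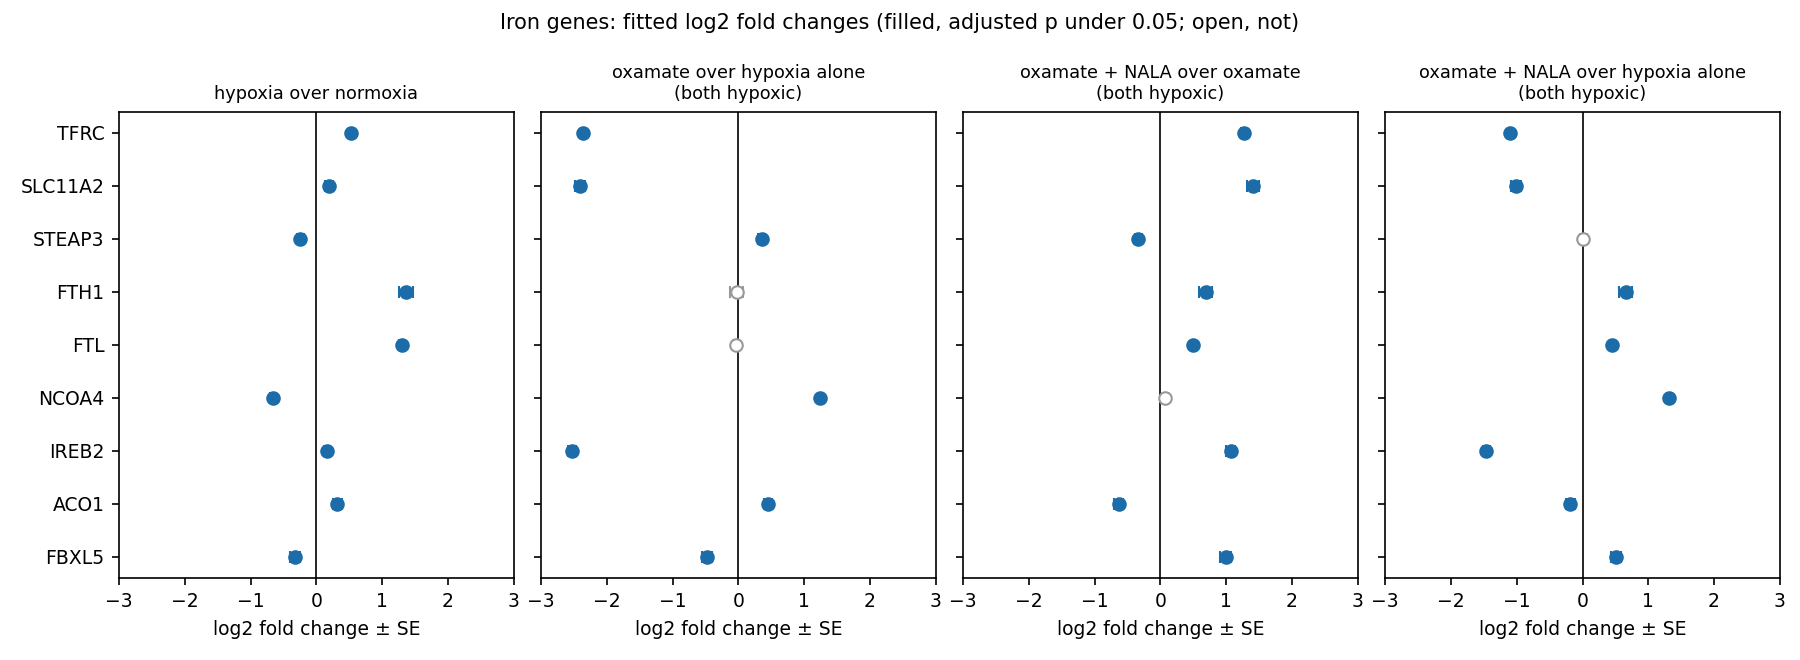
Fitted log2 fold changes ± SE of the 9 tested members (rows) in 4 comparisons (panels), filled where the adjusted p was under 0.05. With oxamate, TFRC, SLC11A2 and IREB2 lie between -2.53 and -2.36, and the same genes lie between 1.07 and 1.40 when NALA is added.

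Against normoxia, oxamate in hypoxia left 4 members higher and 4 lower (72.0% of all tested genes passed, 31.9% higher and 40.1% lower; 5 of 9 members and 27.5% of all tested genes reached 2-fold), with TFRC at -1.84 ± 0.034, SLC11A2 at -2.22 ± 0.083 and IREB2 at -2.37 ± 0.060. FTH1 and FTL were higher by 1.33 ± 0.102 and 1.25 ± 0.033. With NALA added there were again 4 higher and 4 lower against normoxia (72.7% passed, 35.9% higher and 36.8% lower; 3 of 9 members and 29.6% of all tested genes reached 2-fold), and FTH1 reached 2.02 ± 0.103 and FTL 1.74 ± 0.033.

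Ratios of counts within a library do not depend on the scaling between libraries, and are given as log2 values with no test. An exact two-sided permutation test of 2 against 2 libraries cannot go below p = 0.333. TFRC to FTH1 stood at -3.79 and -4.10 with oxamate and NALA, -4.59 and -4.48 with oxamate, -2.23 and -2.16 in hypoxia and -1.33 and -1.39 in normoxia. No group overlapped with another, and oxamate had the lowest ratio of receptor to ferritin. IREB2 to ACO1 stood at 0.41 and 0.21 with oxamate and NALA, -1.35 and -1.45 with oxamate, 1.51 and 1.65 in hypoxia and 1.79 and 1.68 in normoxia. ACO1 thus had more counts than IREB2 in the oxamate group alone, but counts are not scaled to gene length. FTH1 to FTL moved least, between 1.69 and 2.07 over all 8 libraries, with its widest spread between the NALA replicates.

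**Figure D3:**
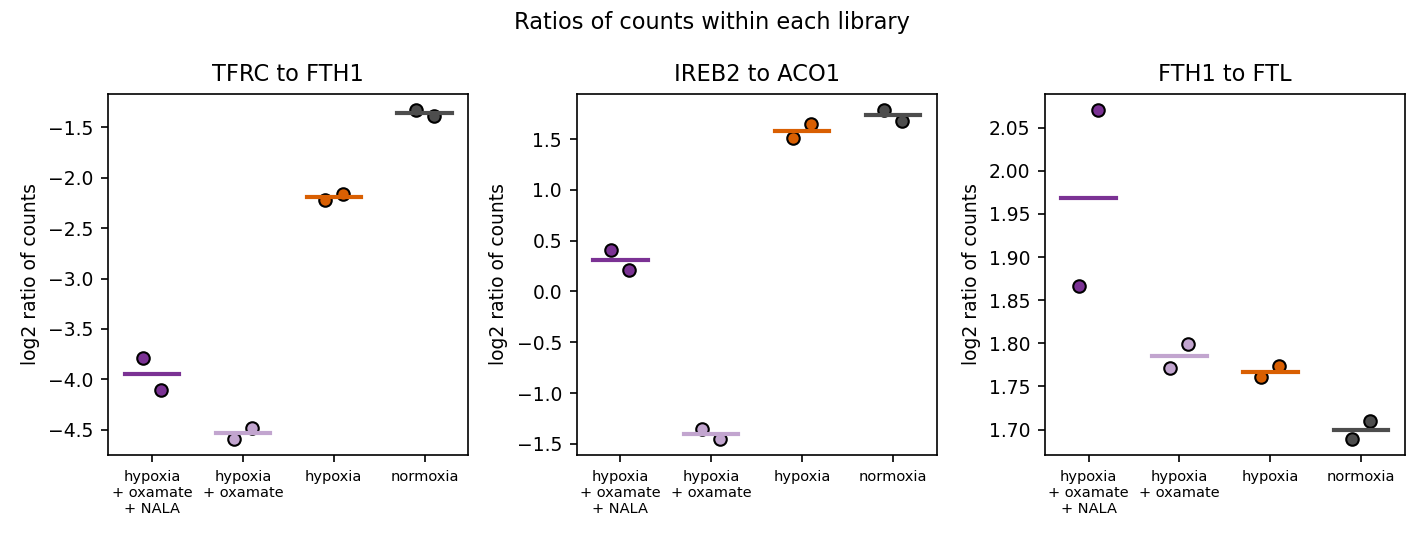
Log2 ratios of counts within each library (vertical axes, which do not start at 0) for 3 gene pairs over the 4 groups. Points are libraries and lines are group means. Mean TFRC to FTH1 is -3.94 with oxamate and NALA, -4.53 with oxamate, -2.20 in hypoxia and -1.36 in normoxia.

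Between genes, levels were compared as TMM-scaled CPM per kilobase of annotated exon. FTH1 was highest and FTL next in every group, at 1328 ± 23.2 and 902 ± 21.7 CPM per kilobase in hypoxia and 517 ± 9.32 and 368 ± 2.81 in normoxia. TFRC followed in hypoxia (74.6 ± 0.956) and normoxia (51.8 ± 0.491), and NCOA4 followed with oxamate and NALA (67.0 ± 2.01) and with oxamate (63.6 ± 0.175). In the oxamate group STEAP3 (17.5 ± 0.433) stood above TFRC (14.5 ± 0.519), an order that turned with the length of the longest transcript, at 18.7 ± 0.463 and 22.4 ± 0.800 CPM per kilobase. The sensors and SLC11A2 stood lower. With oxamate, IREB2 was at 1.39 ± 0.00605, ACO1 at 5.24 ± 0.237 and SLC11A2 at 0.687 ± 0.0655 CPM per kilobase. In hypoxia IREB2 was at 8.03 ± 0.262 and ACO1 at 3.84 ± 0.124. With oxamate and NALA, ACO1 was at 3.36 ± 0.141 and IREB2 at 2.92 ± 0.156. That order turned with the length of the longest transcript, at 3.40 ± 0.143 and 4.97 ± 0.265 CPM per kilobase.

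Over the 8 libraries, which fall into the 4 groups, the tested genes whose log2 CPM tracked TFRC most closely were SEMA3A (Pearson r = 0.999), PPP4R3B (0.998) and HPS4 (0.998). SEMA3A averaged 25.8 CPM with oxamate and NALA, 11.3 CPM with oxamate, 54.7 CPM in hypoxia and 40.1 CPM in normoxia. Among the members, r with TFRC was 0.989 for SLC11A2 and 0.973 for IREB2. JUP (0.997), DLGAP4 (0.997) and SCAND1 (0.995) tracked FTH1 most closely, and FTL had an r of 0.995 with it. These r values describe points that share libraries and group means.

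A further 73 genes of iron handling, listed in 5 groups by function, all matched the table, and 65 were tested. In hypoxia against normoxia 20 rose and 33 fell, where 36.7% of all tested genes rose and 36.8% fell, with a median of -0.18 beside 0.02 over all tested genes. Mitochondrial iron and iron-sulfur cluster genes were lower in 16 of 26 cases and higher in 7, with a median of -0.44. They included CIAPIN1, of cytosolic cluster assembly (-1.81 ± 0.056), while STEAP1, of the same family as STEAP3, fell most of the list (-2.23 ± 0.178). Where the log2 CPM averaged 1 or more, the largest increases were in EPAS1, encoding HIF-2α (1.62 ± 0.058), BLVRB, a biliverdin reductase (1.24 ± 0.054), and HFE, a partner of the transferrin receptor (1.10 ± 0.062). EPAS1 was listed for a described iron-responsive element, which the search above did not find in its UTRs.

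With oxamate against hypoxia 40 of the 65 rose and 17 fell, where 35.7% of all tested genes rose and 44.8% fell, with a median of 0.45 beside -0.20 over all tested genes. The mitochondrial and iron-sulfur genes were higher in 21 of 26 cases and lower in 4 (median 0.69). CIAPIN1 rose by 2.44 ± 0.055 and STEAP1, of the uptake and carrier list, by 2.05 ± 0.183. Above the same limit on abundance, the 3 largest decreases were in genes listed for an iron-responsive element, EPAS1 (-1.54 ± 0.059), CDC42BPA (-1.48 ± 0.099) and CDC14A (-1.37 ± 0.175), the last pair being a kinase and a phosphatase of the cell cycle and cytoskeleton. The search above found no match in the UTRs of EPAS1 or CDC42BPA. In CDC14A it found 1, in the 3′ UTR of 1 of 8 transcripts. Below that limit on abundance, 2 genes named after their values were seen fell more. ABCB6, a porphyrin transporter, changed by -2.42 ± 0.356. STEAP4, a metal reductase, had 1 and 0 counts with oxamate, against 36 and 47 counts in hypoxia, too few for its fitted fold change to give a size.

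Adding NALA to oxamate turned these counts, with 18 of 65 higher and 38 lower, where 33.2% of all tested genes were higher and 31.7% lower. The median was -0.26, beside -0.02 over all tested genes. The count of higher genes was 10 without oxamate replicate 1 and 9 without oxamate replicate 2. Of the mitochondrial and iron-sulfur genes 5 rose and 19 fell (median -0.33), each by less than 2-fold. Above the limit on abundance, HMOX1, encoding heme oxygenase 1, which frees iron from heme, rose by 1.57 ± 0.138, EPAS1 by 1.17 ± 0.062 and CDC14A by 0.86 ± 0.188. RBX1, a subunit of cullin ubiquitin ligases, changed by -1.19 ± 0.083, LCN2, a carrier of iron-binding siderophores, by -0.97 ± 0.167 and STEAP1 by -0.87 ± 0.168. HMOX1 stood at 11.6 and 13.6 CPM with oxamate and NALA, 4.57 and 3.96 CPM with oxamate, 4.65 and 5.42 CPM in hypoxia and 5.25 and 5.34 CPM in normoxia, and the NALA group lay above all others. In these 3 comparisons the median of the mitochondrial and iron-sulfur genes kept its sign under every scaling and filter tried and without each library of the compared groups.

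**Figure D4:**
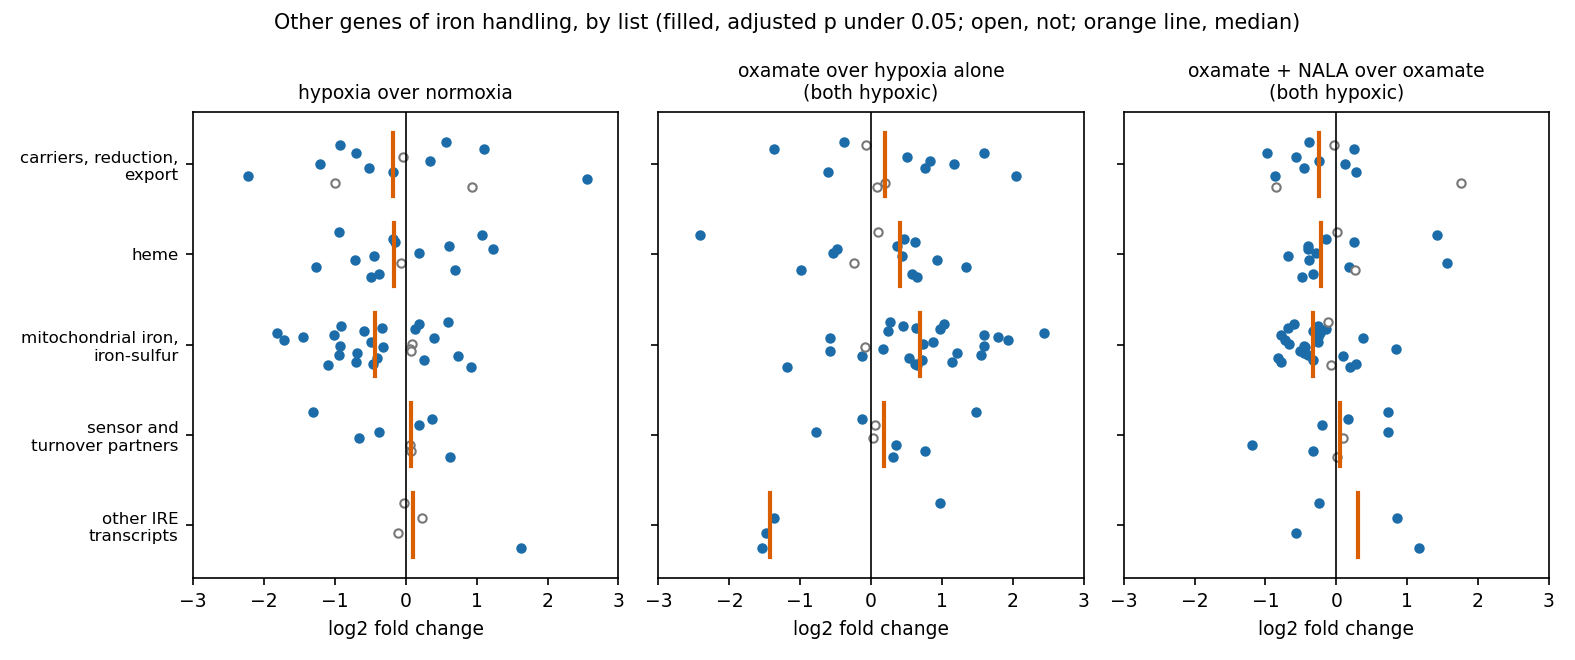
Log2 fold changes of the 65 tested genes of iron handling other than the members, in 5 lists (rows) and 3 comparisons (panels), filled where the adjusted p was under 0.05, with list medians as orange lines. The median of the mitochondrial iron and iron-sulfur list is -0.44 in hypoxia over normoxia, 0.69 with oxamate over hypoxia and -0.33 with NALA added.

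In the remaining comparisons, oxamate with NALA against hypoxia left 34 of the 65 higher and 18 lower, where 38.5% of all tested genes were higher and 40.2% lower. The higher genes included TF, encoding transferrin, at 47 and 10 counts with oxamate and NALA and 11 and 9 counts in hypoxia. The 47 counts were in the library that held the ALB counts. Above the same limit on abundance, the list was led by ATG16L1, an autophagy gene (2.21 ± 0.063), CIAPIN1 (2.20 ± 0.056) and FDX2, a mitochondrial ferredoxin (1.53 ± 0.100), and by CDC42BPA (-2.05 ± 0.109), HFE (-1.12 ± 0.065) and ISCA2 (-1.09 ± 0.095). Under upper quartile normalization 29 were lower. Against normoxia, oxamate left 39 of the 65 higher and 18 lower, beside 31.9% and 40.1% of all tested genes. Above that limit, the extremes were BOLA3 (1.23 ± 0.067), PCBP2 (1.18 ± 0.027) and CIAO2B (1.10 ± 0.044) on the higher side and CDC42BPA (-1.59 ± 0.098), CUL1 (-1.15 ± 0.048) and CDC14A (-1.14 ± 0.178) on the lower. Oxamate with NALA against normoxia gave 25 higher and 24 lower, beside 35.9% and 36.8% of all tested genes. The extremes above the limit were HMOX1 (1.26 ± 0.131), EPAS1 (1.25 ± 0.061) and ISCA1 (1.08 ± 0.050) on the higher side and CDC42BPA (-2.16 ± 0.108), STEAP1 (-1.05 ± 0.164) and FLVCR1, a heme exporter (-1.04 ± 0.052), on the lower.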

How the data were processed

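RNA of 8 KYSE150 libraries was captured with oligo(dT) beads, per the labels' protocols. The authors deposited 1 table of raw counts per gene, whole numbers without normalization. Per the submitters' processing notes, the tools were STAR 2.7.8a, RSEM 1.3.3 and FastQC 0.11.9, on hg38 or GRCh38, with no role stated, so counts may be rounded RSEM estimates. The sources used here state neither strandedness nor the annotation. Reads shared between a gene and a copy or antisense partner may be split by such a pipeline.

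Groups were taken from the sample titles. The analysis ran edgeR 4.0.16 under R 4.3.3, using filterByExpr (minimum count 10), TMM factors (0.879 to 1.15) and 1 robust quasi-likelihood fit of 4 group means with 4 residual degrees of freedom. All 6 pairs of groups were tested with the two-sided F test, with Benjamini-Hochberg adjustment across the 15554 genes. Standard errors were derived from the F statistic. Correlations used log2 CPM with a prior count of 2. Positions and exon lengths are from GENCODE release 29.

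The members and lists were chosen with earlier results of these data known. Named genes are the 10 members, the 3 largest increases and 3 largest decreases of the iron lists in each comparison (passing, mean log2 CPM of at least 1, groups not overlapping) and the 3 genes most correlated with TFRC and with FTH1. Not every gene under this rule is reported here. Alternatives were RLE and upper quartile scaling, no filter, 50 counts in 2 libraries, DESeq2 1.42.0, a replicate block, a fit of 2 groups alone, pseudogenes summed with their parent, transcript length, and leaving out each library. The fit was also run on simulated counts, with far fewer changed genes than passed here. That run cannot show how the scaling holds when most genes change.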

Additional observations from a re-analysis of the deposited data

How the results depend on the processing

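Over 606 refits of a member's log2 fold change, 559 kept direction and side of the threshold, and 21 changed sign, some of which then passed. Among the rest, which kept the sign, 15 lost the call and 11 gained it. The sign changes were confined to 5 values that had not passed. FTH1 with oxamate against hypoxia (-0.03) gave 0.0554 with RLE and with DESeq2, 0.0078 with the stricter filter, 0.0774 in the fit of 2 groups alone, and between -0.0421 and 0.0977 without single libraries. FTL in that comparison (-0.04) gave 0.0380 with RLE and with DESeq2, 0.0600 in the fit of 2 groups alone, -0.11 with upper quartile scaling (passing as lower), and between -0.0662 and 0.0939 without single libraries. NCOA4 with NALA added to oxamate (0.07) gave -0.12 with upper quartile scaling, -0.0428 with the stricter filter and between -0.0293 and 0.117 without single libraries. STEAP3 with oxamate and NALA against hypoxia (0.01) gave -0.24 with upper quartile scaling, -0.0054 without a filter, -0.0679 with the stricter filter and between -0.0122 and 0.0466 without single libraries. ACO1 with oxamate and NALA against normoxia (0.13) gave -0.0235 with upper quartile scaling. Upper quartile scaling moved the median of all genes to -0.31 for oxamate with NALA against hypoxia, where TMM gave -0.05. In the fit of 2 groups alone, 5 members rose with oxamate against hypoxia, and 3 in the fit of all. Of the iron lists, 18 genes rose with NALA added to oxamate, but 9 with upper quartile scaling, 10 with the stricter filter and between 9 and 19 without single libraries. Those lower with oxamate and NALA against hypoxia numbered 29 with upper quartile scaling, 18 in the fit reported and between 14 and 24 in the other alternatives. The causes were not tested.

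The labels give replicate numbers, but same-numbered libraries did not deviate together (correlations of deviations between -0.0502 and 0.0118). With the replicate number as a block no member changed its call, and 5111 genes rose and 4870 fell with NALA added to oxamate, against 5160 and 4927 without it. With 2 libraries a group, small changes rest on single libraries. Replicates differed most with oxamate and NALA. Chi-square per degree of freedom against counting error was 4.78 there, 2.03 with oxamate, 2.09 in hypoxia and 1.84 in normoxia. The fit shared each gene's spread across the groups, so p-values of comparisons with the NALA group lean partly on groups with closer replicates.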
